A study of Homo sapiens with 8 samples.

Results

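TREM2, GREB1, ANK1, CYGB, SULF2, CYFIP2 and GASK1B are 7 of the 58233 Ensembl gene identifiers in the count table of this series, and none of them belongs to the classic DNA repair machinery. They were chosen because their counts rose strongly after ionizing radiation (IR) in control or in RBM6-knockout cells, so their IR responses are given as a description without a test. The choice did not use the difference between the genotypes averaged over untreated and irradiated cells, and that difference was tested.

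The cells were MCF10A-Hras, which descend from MCF10A, an immortal line of human mammary epithelium that does not form tumours, and carry oncogenic H-Ras in every library of the series. Poly(A) RNA was sequenced from 8 libraries in 4 groups of 2, labelled A and B within each group: WT (control) cells left untreated, control cells 12 h after 5 Gy of X-rays, RBM6-KO cells left untreated, and RBM6-KO cells 12 h after 5 Gy. RBM6 encodes an RNA-binding splicing regulator, and the comparison asked how its loss alters expression with and without DNA damage. The RBM6-KO line is 1 clone made with the Cas9-D10A nickase and a pair of guides to RBM6 exon 3, so effects of the knockout and of the clone cannot be told apart.

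The libraries held 15355281 to 29832009 counts, the largest being control IR B, and replicate libraries correlated at r = 0.983 to 0.986 across genes. RBM6, the targeted gene, had 842 to 1520 counts in the control and 692 to 1093 counts in the RBM6-KO libraries, with a genotype difference of -0.27 ± 0.11 (log2 fold change ± standard error, adjusted p = 0.188, edgeR). A count summed over a gene does not read a small edit in 1 exon and is no check of these labels. All 9 markers of basal mammary epithelium exceeded 1 CPM (counts scaled to a common library total) in every group, and none of the 8 erythroid markers did in any. Of 8 stromal fibroblast markers 2 or 3 exceeded it, depending on the group, with DCN reaching 204 CPM. Of 4 neuron markers 1 to 3 did. The labels do not say that A and B were separate cultures, though the study describes 2 biological replicates, and p-values measure only the spread between these libraries.

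The 7 genes do unrelated work. TREM2 is a lipid-sensing surface receptor of macrophages and microglia that signals through the adaptor TYROBP. GREB1 is an oestrogen-induced glycosyltransferase that binds the oestrogen receptor, and ANK1 is the ankyrin that ties the red cell membrane to its spectrin skeleton. CYGB is a globin found in many tissues that handles oxygen and nitric oxide, and SULF2 is a secreted enzyme that removes 6-O-sulfate groups from heparan sulfate. CYFIP2 is a subunit of the WAVE complex, which starts actin branching below the membrane, and GASK1B is a Golgi-associated protein of the FAM198 family. After IR, the kinase ATM leads to stabilization of the transcription factor p53, which activates genes for cell-cycle arrest, repair and death by binding to pairs of a 10-base half-site whose core is a C and a G separated by 2 bases.

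The 7 genes were chosen for their rise after IR, so their moving together follows from the choice. Sequence near their starts was searched for that element as a description. A pair of adjacent half-sites with both cores exact and at most 2 other mismatches, in 5000 bases on each side of the canonical start (hg38, both strands, since the element is its own reverse complement), occurred near 2 of the 7 genes, SULF2 and TREM2. The same search found a match near 7.66% of 19970 protein-coding genes. The matched letters are shown on the strand of the gene, with the 4 letters from C to G of each core in capitals. Here and below, an exact core means the C and the G alone, and the bases between them could be among the mismatches.

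SULF2, chr20:47784913-47784932, minus strand, 558 bases after the start: gggCTTGtccgggCAGGact

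TREM2, chr6:41160958-41160977, minus strand, 2148 bases after the start: gaaCTAGcctggcCTTGgcc

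With 0 to 3 bases allowed between the half-sites, GASK1B also matched, making 3 of 7 genes against 26.4% of all genes. RefSeq promoter windows (GRCh38.p14, from 250 bases before to 50 bases after a start) were listed for 4 of the 7 genes, TREM2, SULF2, CYFIP2 and GASK1B, in 9 windows. Single half-sites with an exact core and at most 1 other mismatch occurred in 4 places in these windows. Of all 35116 promoter windows, 45.1% held at least 1, a share of windows against which a count of places cannot be set. The 4 are shown with 10 bases on each side and the half-site in capitals, positions counted from the start of the window's transcript.

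TREM2, chr6:41163313-41163342, minus strand, position -211: gcaggagggtGGGCTGGCTTctcagaggtc

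TREM2, chr6:41163157-41163186, minus strand, position -55: gggcagcgccTGACATGCCTgatcctctct

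CYFIP2, chr5:157265930-157265959, plus strand, position -178: cgaaaccgagAGGCAGGTCCtgggtgcgcc

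CYFIP2, chr5:157269287-157269316, plus strand, position -22: aagtgggaggGAACAAGCCAagcagaagcc

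These are matches of letters and not measured binding sites.

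TREM2 (ENSG00000095970, chr6:41158506-41163186, minus strand) came from almost no reads. Untreated control libraries held 3 and 10 counts, and the irradiated control libraries 334 and 398. In RBM6-KO cells, untreated libraries held 3 and 0 counts, a count of 0 at this depth allowing up to 0.195 CPM, and irradiated libraries 88 and 68. Both irradiated groups stood above all 4 untreated libraries, and the control IR libraries were far above the RBM6-KO IR libraries. In CPM scaled by trimmed mean of M-values, the level went from 0.36 ± 0.249 to 17.2 ± 6.23 in control cells (mean ± SD, n = 2) and from 0.0844 ± 0.119 to 3.94 ± 0.856 in RBM6-KO cells. The ratio of summed counts, corrected for library size, was 42.3 in control cells (95% interval 24.6 to 79.8) and 42.4 in RBM6-KO cells (14.2 to 208), where the intervals here and for the other genes cover counting error only. Ranked by fitted log2 fold change, TREM2 was number 2 of 15412 genes tested in control cells (5.50 ± 0.45, standard error) and number 1 of 15598 in RBM6-KO cells (5.30 ± 0.65). Both values rested on few untreated reads, the first reaching 6.49 without untreated control B and the second running from 4.48 to 9.16 without untreated RBM6-KO B or A.

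GREB1 (ENSG00000196208, chr2:11482341-11642788, plus strand) started from 24 to 33 counts per library. Untreated control cells gave 24 and 28 counts and irradiated control cells 233 and 591, the second from the deepest library. RBM6-KO cells gave 33 and 25 counts untreated and 182 and 271 after IR. The untreated levels of both genotypes lay close together, between 1.47 and 1.86 CPM, and IR lifted all 4 libraries to 9.39 CPM or more. The log2 fold change was 3.51 ± 0.29 in control cells and 2.65 ± 0.28 in RBM6-KO cells, ranks 11 and 18, for ratios of 11.9 (8.99 to 16.1) and 6.37 (4.84 to 8.53).

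ANK1 (ENSG00000029534, chr8:41653220-41896741, minus strand) was the other gene that started near 0. The untreated control libraries held 4 and 4 counts and the untreated RBM6-KO libraries 6 and 4, levels of 0.215 to 0.338 CPM, close to the limit that a count of 0 allows. After IR, counts were 68 and 134 in control cells and 33 and 38 in RBM6-KO cells. The irradiated control levels of 4.40 and 4.31 CPM stood above the irradiated RBM6-KO levels of 1.70 and 1.86 CPM. Log2 fold changes were 4.20 ± 0.44 (rank 6) and 2.49 ± 0.50 (rank 23), and the count ratios 19.0 (9.44 to 44.5) and 5.79 (2.97 to 12.6).

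CYGB (ENSG00000161544, chr17:76527356-76551175, minus strand) gave 15 and 12 counts in untreated and 132 and 202 in irradiated control libraries. In RBM6-KO cells it gave 17 and 28 counts untreated and 107 and 127 after IR. The untreated RBM6-KO levels (0.957 and 1.90 CPM) lay above the untreated control levels (0.921 and 0.644 CPM). The irradiated RBM6-KO levels (5.52 and 6.22 CPM) lay below those of control cells (8.55 and 6.50 CPM). Both gaps were narrow, at their closest 0.957 against 0.921 CPM untreated and 6.22 against 6.50 CPM after IR, and the counts behind the first were few. IR changed CYGB by 3.25 ± 0.36 on the log2 scale in control cells (rank 13) and by 2.04 ± 0.35 in RBM6-KO cells (rank 48), ratios of 9.29 (6.27 to 14.3) and 4.24 (3.07 to 5.97).

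SULF2 (ENSG00000196562, chr20:47656197-47786616, minus strand) had lower counts in RBM6-KO than in control libraries in both states. Control cells held 98 and 144 counts untreated and 513 and 1064 after IR, while RBM6-KO cells held 23 and 43 untreated and 178 and 161 after IR. Irradiated RBM6-KO cells, at 9.18 and 7.89 CPM, reached a level just above that of untreated control cells, at 6.02 and 7.72 CPM, and stayed below irradiated control cells, at 33.2 and 34.3 CPM. The rise itself was 2.28 ± 0.23 in control cells (rank 57) and 2.02 ± 0.35 in RBM6-KO cells (rank 52) on the log2 scale, with ratios of 4.89 (4.27 to 5.63) and 4.19 (3.21 to 5.54). The second log2 value was 2.71 without untreated RBM6-KO B and 1.54 without untreated RBM6-KO A.

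CYFIP2 (ENSG00000055163, chr5:157266079-157395595, plus strand) was already well counted before IR. It gave 301 and 446 counts in untreated and 1149 and 2506 in irradiated control cells, and 249 and 263 in untreated and 967 and 1228 in irradiated RBM6-KO cells. Before IR, RBM6-KO cells were at 14.0 and 17.9 CPM against 18.5 and 23.9 CPM in control cells. After it they were at 49.9 and 60.1 against 74.4 and 80.7 CPM. Its log2 fold changes were the smallest of the 7, 1.86 ± 0.20 (rank 103) and 1.77 ± 0.19 (rank 81), and its ratios, 3.68 (3.40 to 3.98) and 3.50 (3.17 to 3.86), the best determined by counting.

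GASK1B (ENSG00000164125, chr4:158124474-158173318, minus strand) gave 55 and 46 counts in untreated and 176 and 646 in irradiated control cells. RBM6-KO cells gave 40 and 35 counts untreated and 234 and 354 after IR. The irradiated control replicates were far apart, 11.4 and 20.8 CPM, and enclosed both irradiated RBM6-KO libraries at 12.1 and 17.3 CPM. Log2 fold changes were 2.47 ± 0.33 (rank 46) and 2.65 ± 0.27 (rank 17), with ratios of 6.11 (4.97 to 7.59) and 6.40 (5.02 to 8.25).

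**Figure D1:**
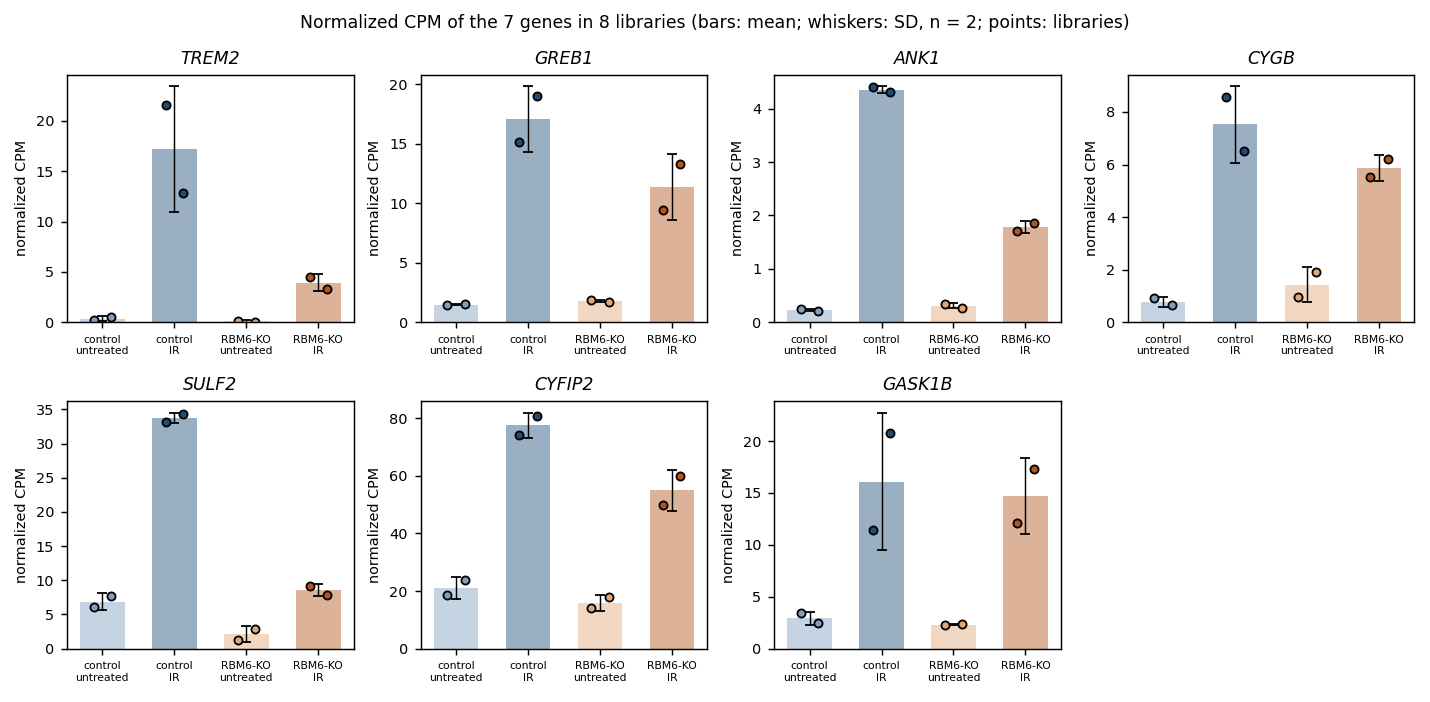
Normalized CPM (linear axis from 0, 1 panel per gene) of the 7 genes in control and RBM6-KO cells, untreated and 12 h after IR, with bars at the mean, whiskers of 1 SD (n = 2) and points for the libraries. Irradiated libraries lie above untreated ones in every panel, and TREM2 and SULF2 are lower in RBM6-KO than in control cells after IR.

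Per kilobase of annotated exon, the scale on which genes can be compared with one another, the order changed. In irradiated control cells TREM2, whose exons cover 1095 bases, was highest at 15.7 ± 5.69 CPM per kb, followed by CYFIP2 at 7.34 ± 0.42 and SULF2 at 4.83 ± 0.105. CYGB at 2.73 ± 0.525 and GASK1B at 2.04 ± 0.844 were within 1 SD of each other, GREB1 was at 1.37 ± 0.224 and ANK1 lowest at 0.396 ± 0.00573. In untreated control cells CYFIP2 was highest at 2.01 ± 0.365 CPM per kb and TREM2 was at 0.329 ± 0.227, within 1 SD of GASK1B at 0.371 ± 0.0815 and CYGB at 0.284 ± 0.0712.

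The difference of the IR response between the genotypes, RBM6-KO minus control on the log2 scale, was largest for ANK1 at -1.70 ± 0.64 (standard error), followed by CYGB at -1.20 ± 0.51 and GREB1 at -0.85 ± 0.38. It was -0.25 ± 0.42 for SULF2, -0.08 ± 0.27 for CYFIP2 and 0.19 ± 0.47 for GASK1B, each within its standard error. For TREM2 it was -0.18 ± 2.02, a value that the counts of 3 and 0 in untreated RBM6-KO cells leave undetermined. With 1 library left out, the difference of TREM2 ran from -1.17 to 3.75, that of SULF2 from -0.74 to 0.41, that of CYFIP2 from -0.29 to 0.09 and that of GASK1B from -0.17 to 0.73. These responses chose the genes, so the differences are descriptions with no test.

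**Figure D2:**
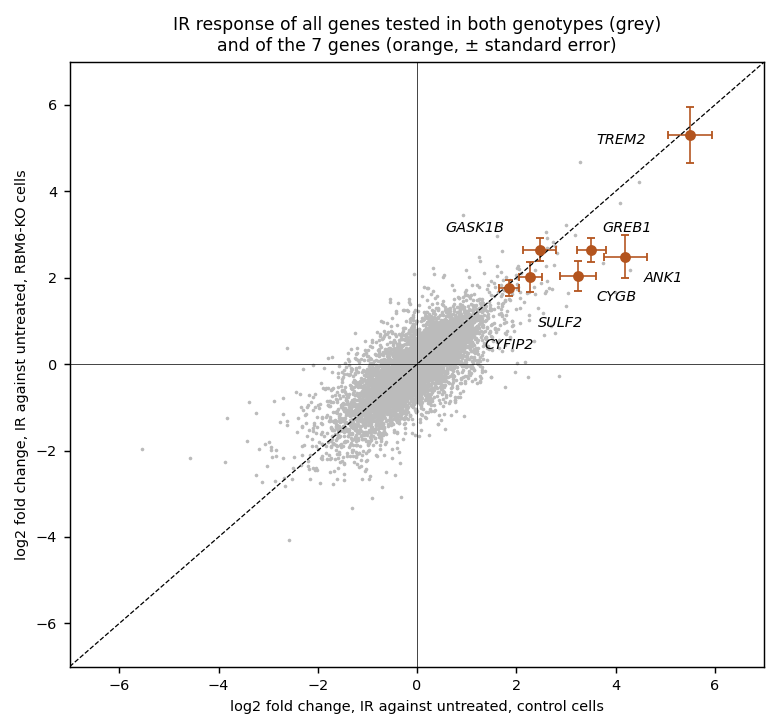
Log2 fold change after IR in control cells (horizontal axis) against RBM6-KO cells (vertical axis) for all genes tested in both (grey) and the 7 genes (orange, with standard errors), the dashed line marking equal change. TREM2 lies at 5.50 and 5.30, and ANK1, CYGB and GREB1 lie below the line.

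Loss of RBM6 was tested across all genes as the RBM6-KO minus control difference averaged over untreated and irradiated cells. The coefficients of this contrast are orthogonal to those of both IR contrasts that chose the genes, though the estimates need not be independent where the libraries differ in precision. All 7 genes passed the filter on low counts here, but TREM2 and ANK1 passed it through the irradiated groups alone, so their differences are given with no test. SULF2 was the 1 gene of the other 5 called lower in RBM6-KO cells at an adjusted p under 0.05 and a fold of at least 2, against 3.40% of 16549 genes called, 1.20% higher and 2.20% lower. It fell by 1.86 ± 0.21 on the log2 scale (95% interval -2.32 to -1.40, adjusted p = 0.000334, edgeR's quasi-likelihood F test, Benjamini-Hochberg adjusted over all genes), 3.62-fold lower.

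The remaining 4 did not pass. CYFIP2 differed by -0.45 ± 0.13 (-0.75 to -0.16, adjusted p = 0.062 by edgeR), a reduction of 1.37-fold and so below the fold limit. GASK1B differed by -0.24 ± 0.23 (-0.75 to 0.28, adjusted p = 0.619), GREB1 by -0.17 ± 0.19 (-0.59 to 0.26, adjusted p = 0.676) and CYGB by 0.25 ± 0.26 (-0.31 to 0.82, adjusted p = 0.626), each by edgeR. The untested values were -2.03 ± 0.53 (-3.20 to -0.85) for TREM2 and -0.44 ± 0.33 (-1.16 to 0.28) for ANK1. That of TREM2 was -1.54 without untreated control B, -1.62 without untreated RBM6-KO B and -4.00 without untreated RBM6-KO A.

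Differences within a single state use the untreated or irradiated values on which the genes were chosen, and are given as a description with no test. In untreated cells 5 of the 7 passed the filter, TREM2 and ANK1 having too few counts. SULF2 stood at -1.74 ± 0.34 there (-2.40 without untreated RBM6-KO B). Among all 15556 genes tested in untreated cells, 3.12% were called, 1.16% higher and 1.97% lower. After IR, TREM2 stood at -2.11 ± 0.32 and SULF2 at -1.98 ± 0.20. Among all 15587 genes tested after IR, 1.17% were called, 0.353% higher and 0.815% lower. The difference of ANK1 after IR was -1.28 ± 0.28, and the other 4 ranged from -0.59 for GREB1 to -0.14 for GASK1B.

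**Figure D3:**
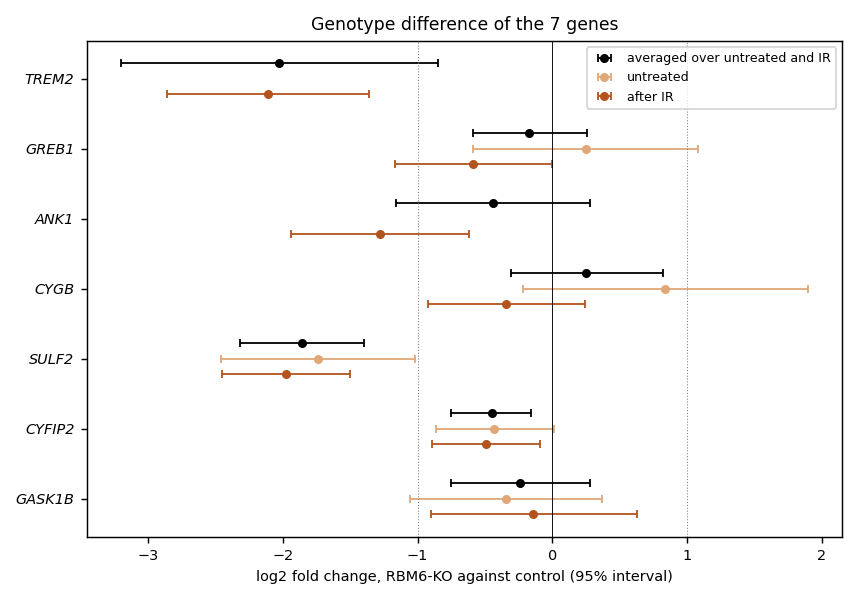
RBM6-KO minus control log2 fold change (horizontal axis) of the 7 genes, with 95% intervals, averaged over untreated and irradiated cells (black), in untreated cells (light orange) and after IR (dark orange). All intervals of SULF2 and TREM2, those of CYFIP2 averaged and after IR and that of ANK1 after IR lie below 0, dotted lines mark a 2-fold difference, and the differences within a single state and those of TREM2 and ANK1 are descriptions with no test.

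SULF2 lies on chromosome 20, where the median genotype difference over 436 genes tested was -0.26. On the chromosomes of the other 6 genes that median ranged from -0.01 to 0.11. Within 1 Mb of SULF2, 6 genes were tested with a median of -0.39, and EYA2, a phosphatase and transcriptional coactivator, was called lower. The study measured reduced EYA2 by RT-qPCR in this clone and in additional RBM6 knockout clones. The part of the chromosome 20 shift in the SULF2 difference was not tested.

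Molecular partners of the 7 genes were also tested after IR. Over 113 relatives and partners, 76 could be tested after IR in each genotype. In control cells 2 rose and 0 fell, and likewise in RBM6-KO cells, by edgeR and by DESeq2 alike in number. That is 2.63%, against 3.59% of all genes called in control cells (1.68% higher, 1.91% lower) and 3.11% in RBM6-KO cells (1.13% higher, 1.97% lower). A count this small and near those shares is no result about the partners. At an unadjusted p under 0.05, 20 were higher and 2 lower in control cells and 26 and 7 in RBM6-KO cells. The share of all genes past that unadjusted limit is not given, so such counts, here and for the lists below, cannot be set against it. Median log2 fold changes over those tested were 0.36 and 0.34, against 0.0167 and -0.0059 over all genes tested. The count of 2 ran from 1 to 10 in control cells, highest without control IR A, and from 1 to 9 in RBM6-KO cells, highest without RBM6-KO IR A. INPP5D, the lipid phosphatase SHIP1 that restrains signalling below TREM2, rose in both, by 1.21 ± 0.16 on the log2 scale in control cells (adjusted p = 0.00388, edgeR) and 1.11 ± 0.15 in RBM6-KO cells (adjusted p = 0.00952). HSPG2, the basement membrane heparan sulfate proteoglycan perlecan, was called in control cells (1.02 ± 0.20, adjusted p = 0.019) and SDC2, the proteoglycan syndecan-2, in RBM6-KO cells (1.09 ± 0.27, adjusted p = 0.0488), both by edgeR. In the other genotype HSPG2 was at 0.71 ± 0.26 and SDC2 at 1.05 ± 0.32, neither called.

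TYROBP, the signalling adaptor of TREM2, had 0 counts in all 8 libraries, and the related adaptor HCST had 1 count in all. In the averaged genotype difference 3 of the 9 TREM2 partners tested were called lower and 0 higher, against 2.20% of genes lower, and these were named after their values were seen. SYK, the kinase recruited by TYROBP, gave 13, 16, 23 and 35 counts in the control libraries and 0, 0, 3 and 1 in the RBM6-KO libraries. It is among the 3, but it passed the filter on low counts through the control groups alone, so its difference is given with no test. APOE, a lipoprotein that binds TREM2, differed by -2.31 ± 0.31 (adjusted p = 0.00106) and the chaperone CLU by -1.39 ± 0.18 (adjusted p = 0.000714), both by edgeR. INPP5D differed by -0.79 ± 0.10 (adjusted p = 0.000815), below the fold limit. TREM1, the receptor nearest to TREM2 in family, differed the other way, by 0.91 ± 0.23 (adjusted p = 0.0305), also below the fold limit.

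TREM2 is a myeloid marker, and 3 of 10 other myeloid markers exceeded 1 CPM in each group, namely CD14, CSF1R and LAPTM5. Their list summed to 34.7 to 45.4 CPM in untreated and 60.2 to 70.6 CPM in irradiated control cells, and to 21.0 to 25.4 and 30.8 to 36.0 CPM in RBM6-KO cells, and their part in the TREM2 values was not tested. LAPTM5 made most of that rise, with 316 and 454 counts in untreated and 776 and 1322 in irradiated control libraries, while CD14 gave 196 and 353 and then 184 and 373. CSF1R gave 50 and 36 counts in untreated control and 86 and 55 in untreated RBM6-KO libraries. The defining markers were at or near 0, with AIF1, C1QA and C1QB at 0 counts in all 8 libraries, PTPRC, the pan-leukocyte antigen CD45, at 0 to 2 counts and CD68 at 0 to 3. ITGAM, the integrin CD11b, gave 0 and 2 counts in untreated and 16 and 23 in irradiated control libraries, and 2, 0, 2 and 6 in the RBM6-KO libraries. Fewer cells of a type and less RNA per cell cannot be told apart in such bulk libraries.

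None of the 10 tested genes of the oestrogen receptor axis of GREB1 was called after IR in either genotype by edgeR or DESeq2 (4 higher in control cells, 2 higher and 1 lower in RBM6-KO cells at an unadjusted p under 0.05, median log2 fold change 0.37 in control and 0.14 in RBM6-KO cells, against 0.0167 and -0.0059 over all genes tested). With 3.59% and 3.11% of all genes called, a count of 0 in lists this short or shorter is no result about them. The receptor gene ESR1 gave 0 to 14 counts per library, and its classic targets PGR and TFF1 gave 0 or 1 count and 0 counts. IGFBP4, an insulin-like growth factor binding protein on the list, was higher in RBM6-KO cells by 1.64 ± 0.12 (adjusted p = 2.4e-05, edgeR), named after its value was seen.

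Likewise, 0 of 14 tested ankyrin and spectrin skeleton genes, 0 of 2 tested reductase genes of the globin list, 0 of 15 tested WAVE and Arp2/3 genes and 0 of the 6 (control) or 7 (RBM6-KO) secretory pathway kinases tested were called after IR by edgeR or DESeq2. These counts too are near the 3.59% and 3.11% of all genes. At an unadjusted p under 0.05, 3 skeleton genes, 2 WAVE and Arp2/3 genes and 1 kinase were higher and 1 WAVE and Arp2/3 gene lower in control cells. In RBM6-KO cells 2 skeleton genes and 6 WAVE and Arp2/3 genes were higher and 1 of each list and 1 kinase lower, and 0 reductase genes passed in either genotype. Myoglobin (MB), neuroglobin (NGB) and GASK1A, the nearest relatives of CYGB and GASK1B, had 0 counts in all 8 libraries. Of the kinases, DIPK1B stood higher in RBM6-KO cells by 2.38 ± 0.53, on counts of 3, 3, 4 and 3 in the control libraries against 32, 9, 13 and 12. It was named after its value was seen and passed the filter on low counts through the RBM6-KO groups alone, so no test is given.

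Near paralogues gave a closer comparison on the log2 scale of the IR response. GREB1L changed by 0.36 ± 0.26 in control and 0.28 ± 0.26 in RBM6-KO cells, ANK2 by 0.21 ± 0.30 and 0.28 ± 0.25, ANK3 by 0.80 ± 0.29 and 0.50 ± 0.24, and TREM1 by 0.12 ± 0.41 and 1.02 ± 0.33, and none was called. CYFIP1, which takes the same place in the WAVE complex as CYFIP2, changed by 0.64 ± 0.17 and 0.69 ± 0.21. CYFIP1 was the more abundant of the pair in control cells, at 13.5 ± 0.109 CPM per kb untreated and 21.3 ± 4.24 after IR, and the ratio narrowed as CYFIP2 went from 2.01 to 7.34. SULF1, the other extracellular 6-O-endosulfatase, gave 0 to 6 counts per library and could not be tested.

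Many p53 targets rose. Of 31 well-known targets, all tested, 18 rose and 0 fell in control cells (58.1%, against 1.68% of all genes called higher) and 14 rose and 0 fell in RBM6-KO cells (45.2%, against 1.13%). Their median log2 fold changes were 1.07 and 0.95. The 4 with the largest change in control cells were GDF15, a stress cytokine, at 2.62, the kinase PLK2 at 2.04, the antiproliferative BTG2 at 2.02 and TP53INP1, a p53 cofactor, at 1.92, with 2.93, 2.28, 1.98 and 1.62 in RBM6-KO cells. In the averaged genotype difference 0 of the 31 targets were called by edgeR or DESeq2, with 2 higher and 6 lower at an unadjusted p under 0.05 and a median of -0.14. Some passed the adjusted p limit of 0.05 by edgeR but not the fold limit. PLK2 differed by -0.95 ± 0.13, BBC3 by -0.77 ± 0.16 and DDB2 by -0.73 ± 0.09. GDF15 differed by -0.52 ± 0.09, BTG2 by -0.44 ± 0.11 and, the other way, GADD45A by 0.44 ± 0.1. These are all that did, named after their values were seen.

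**Figure D4:**
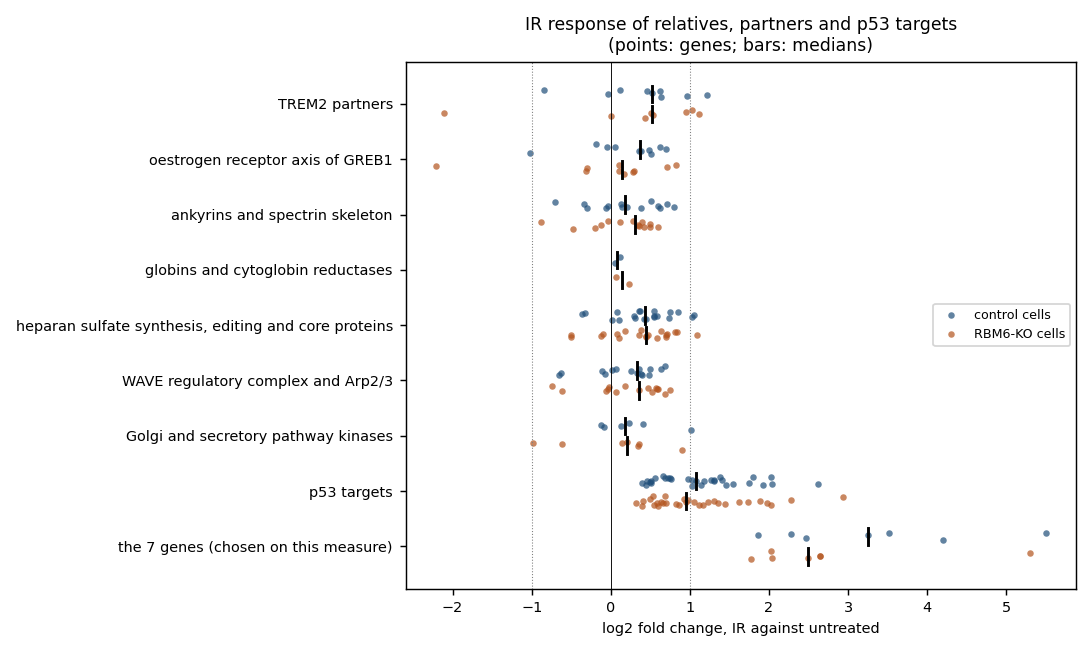
Log2 fold change after IR (horizontal axis) of the genes in each list of relatives, partners and p53 targets and of the 7 genes, in control (blue) and RBM6-KO cells (orange), with black bars at the medians and dotted lines at a 2-fold change. Relatives scatter around medians of 0.08 to 0.52 and p53 targets lie to the right of 0 with medians of 1.07 and 0.95. The 7 genes, chosen on this measure, overlap the upper p53 targets, with GDF15 at 2.62 above CYFIP2 at 1.86 in control cells.

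Across the 8 libraries the log2 CPM of the 7 genes correlated with one another at a Pearson's r of 0.697 to 0.985 (median 0.933, 21 pairs), points that share the IR split on which the genes were chosen. The nearest patterns to SULF2 were AKR1B10 (r = 0.985), PGF (0.983) and EPHB3 (0.978). EPHB3, for example, was at 3.44 and 9.55 CPM in control against 1.22 and 3.04 CPM in RBM6-KO cells. These genes were picked for their likeness to SULF2, so their lower levels in RBM6-KO cells follow from the choice and are no separate result. Nearest to CYFIP2 were GM2A (0.994), SESN1 (0.994) and RCN1 (0.992), and nearest to GASK1B were SPATA18 (0.992), ABTB2 (0.990) and INPP4A (0.989). SESN1 and SPATA18 are both on the p53 target list.

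For TREM2 the nearest were PREP (0.989), GAS6-AS1 (0.988) and PLCH2 (0.987), and for GREB1 ZNF425 (0.995), DNAI3 (0.993) and MXI1 (0.992). ANK1 was nearest to DUOX1 (0.987), MANSC1 (0.986) and FAM222B (0.985), and CYGB to ZKSCAN2 (0.990), ENSG00000247903 (0.982) and BLOC1S2 (0.981). Each r is over 8 libraries and describes these libraries only. The changes behind these likenesses were small for several, as with PREP at 57.1 to 80.5 CPM in control cells.

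Genes that overlap the 7 in their exons share reads with them unless strand was used in counting, and the strand setting is not given in the sources used here. GASK1B-AS1, on the opposite strand with 1040 shared exonic bases, stood higher after IR in both genotypes (2.15 ± 0.50 in control and 1.43 ± 0.35 in RBM6-KO cells), on 8 to 159 counts per library. GASK1B and its antisense gene cannot be told apart on this point. Since GASK1B was chosen on this response, the values of GASK1B-AS1 are a description with no test. ADAM19, which shares 62 exonic bases with CYFIP2, was lower in RBM6-KO cells (-1.58 ± 0.17, adjusted p = 0.000254, edgeR). NCOA3, sharing 247 exonic bases with SULF2, was not called in the genotype difference (-0.43 ± 0.22, adjusted p = 0.279), nor was PRCD, sharing 248 with CYGB (0.71 ± 0.31, adjusted p = 0.198), both by edgeR. ENSG00000267546, on the strand of CYGB with 302 shared bases, held 62 counts over all libraries. TREM2, GREB1 and ANK1 shared exonic bases with no overlapping gene that had a count.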

How the data were processed

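RNA (TRIzol, TruSeq mRNA kit, 150 bp paired-end reads) was sequenced by the authors, who deposited raw counts per Ensembl gene. The submitters' processing notes name STAR, DESeq2 and hg38. The counting tool, annotation version and strand setting are not given in the sources used here. Members and gene lists were chosen with earlier results of these data known. Of 58233 identifiers, 57392 matched GENCODE v44, which gave symbols, positions and exon lengths.

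Counts were tested with edgeR 4.0.16 (R 4.3.3): TMM scaling, filterByExpr, quasi-likelihood F test, Benjamini-Hochberg adjustment over all genes. A call needs an adjusted p under 0.05 and a fold of at least 2. IR and single-state genotype contrasts used their own 4 libraries, while the averaged genotype difference and the difference of the IR response used all 8. Standard errors were |log2 fold change|/√F, and 95% intervals used the t distribution. Log2 CPM for correlations used a prior count of 2. A count of 0 allows 3 counts. Code was tested on simulated data. Named genes were the 7, their paralogues, overlapping genes, called list genes, the 4 most changed p53 targets, and 3 nearest patterns per gene. Targets of p53 past the adjusted p limit alone in the genotype difference were named too. The alternatives were DESeq2 1.42.0, other scalings and filters, a replicate block, 1 fit over all 8 libraries, and omission of each library in turn.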

Additional observations from a re-analysis of the deposited data

How the results depend on the processing

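The 2 libraries per group limit every test, and counts under 10 limit TREM2 and ANK1. The averaged difference of SULF2 was called under every alternative with a test. A minimum of 10 counts in every library removes TREM2, whose averaged difference was not tested. With 1 library left out, the averaged difference of GASK1B ran from -0.42 to 0.02 and its difference after IR from -0.50 to 0.37, above 0 without control IR B (0.02 and 0.37) and RBM6-KO IR A (0.10 after IR), and the averaged difference of CYGB from -0.03 (without untreated RBM6-KO B) to 0.47. Leaving 1 library in a group assumes that it varies like the others.

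Calls after IR in control cells (553) were 962 without a filter and 287 to 1406 with 1 library left out, lowest without untreated control B and highest without control IR A. In RBM6-KO cells (485) they were 1011 without a filter and 289 to 1563, lowest without RBM6-KO IR B and highest without RBM6-KO IR A. Relatives called in control cells (2) were 1 with upper-quartile scaling, 5 without a filter, 1 with all 8 libraries and 1 to 10 with 1 left out, and in RBM6-KO cells (2) 4 without a filter, 1 with the minimum of 10 and 1 to 9. p53 targets called were 13 to 18 in control and 12 to 16 in RBM6-KO cells with 1 left out. Averaged genotype calls (562) were 320 with the minimum of 10. Genotype calls after IR (182) were 280 with DESeq2, 506 without a filter, 71 with the minimum of 10, 340 with all 8 libraries and 169 to 477 with 1 left out, highest without control IR B. Genes called higher and lower after IR in control cells were 259 and 294, against 253 and 172 with DESeq2 and 272 and 446 with upper-quartile scaling. In RBM6-KO cells they were 177 and 308, against 208 and 237 with DESeq2. Of the 21 nearest genes by Pearson's r, 3 were also among the nearest by Spearman's rho. The cause of these changes was not tested.

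The letters A and B are not stated to pair libraries, and deviations from the group means correlated at -0.28 to 0.35 over 6 pairs of groups. With the letter as a replicate block, 541 genes were called in the genotype comparison after IR against 182.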
